A study of Mus musculus with 14 samples.

Results

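Accessible chromatin of the RPR2 liver metastasis line 1373M1 (2 libraries) was set against that of the RPR2 lymph node metastasis lines 12N1G and N2N1G (2 libraries each), 6 of the 14 libraries of a series on mouse small cell lung cancer. The samples were chosen by their labels. On chromosomes 1 to 19 and X, merging all peaks that shared 1 bp or more gave 113392 regions. A region was open in a line where both of its libraries held a peak and closed where neither did, and the lymph node side was open where both of its lines were. By this rule 10606 regions (9.35%) were open in 1373M1 and closed in both lymph node lines, called liver-only below. Another 11003 regions (9.7%) were open in both lymph node lines and closed in 1373M1, called lymph-node-only, and 37544 (33.11%) were open in all 3 lines. These counts follow from the rule and carry no test.

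RPR2 denotes in this field mice in which Rb1, Trp53 and Rbl2 are deleted in lung cells, and all 3 lines share this genotype with no engineered Nfib allele. The other 4 lines of the series carried RPR2;Nfibf/f, written Nfibf/f here, and came from liver metastases (1398M1 and 1399M4) and lung tumors (1398P2 and 1399P1). The title of the series asks which mechanisms of metastasis depend on NFIB, a transcription factor. All libraries came from cultured suspension cells in the same medium and not from the metastases themselves, and the labels give no ages of the mice. The liver side is 1 line, so a difference between tissues cannot be told apart from a difference between 1373M1 and the other lines. No label tells if a line's pair of libraries derives from separate cultures, and their spread may be technical.

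Small cell lung cancer is a neuroendocrine tumor of the lung that spreads early, and lymph node and liver are among its common sites. Open chromatin marks promoters and enhancers that transcription factors can reach, and ATAC-seq reads it out as places where a transposase can insert adapters. NFIB is known in mouse models of this cancer for its link to metastasis and to wider opening of distal chromatin. In a bulk library, a region open in few cells and a region weakly open in many cannot be told apart.

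The 6 libraries held 64975 to 72418 peaks, and their depth, measured as the lowest local background, was 0.632 to 0.803 fragments per bp. Of 16 neuroendocrine genes, 14 had a peak within 1 kb of a gene end in all 6 libraries, among them Insm1, Chga and Syp, and Scg3 and Ddc had none. None of the 10 neuroendocrine genes tested below was called different, and regions summed over the list numbered 64 to 73 in the 1373M1 libraries and 64 to 71 in the lymph node libraries. Of 12 hepatocyte markers, 6 had no peak at an end in any library, Alb and Afp among them, and Apob alone was open on 1 side, in the lymph node lines. Of 12 lymphocyte and myeloid markers, 7 had none, including Ptprc and Cd3e. Regions summed over the hepatocyte list numbered 20 to 22 in 1373M1 and 23 to 26 in the lymph node libraries, and over the lymphocyte and myeloid list 24 to 28 and 20 to 25. The gene ends of Rb1, Trp53 and Rbl2 had peaks in all 6 libraries, which does not check the deletion of their exons.

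The liver line stood apart from both lymph node lines, which were close to each other. Between 1373M1 and 12N1G, 12975 regions were open in 1373M1 alone and 15147 in 12N1G alone. Against N2N1G, 12627 were open in 1373M1 alone and 14610 in N2N1G alone. The lymph node lines differed by 2669 regions open in 12N1G alone and 2384 in N2N1G alone. The Jaccard index, the number of regions with a peak in both of 2 lists over the number with a peak in either, averaged 0.497 between a 1373M1 library and a lymph node library, with a range of 0.488 to 0.505 over 8 pairs. It averaged 0.715 (0.702 to 0.733) over the 4 pairs of 12N1G and N2N1G, and 0.745 (0.736 to 0.762) over the 3 replicate pairs. The ranges of the pairs across tissues and of the pairs within the lymph node side did not overlap, while the last 2 ranges nearly touched at 0.733 and 0.736. With 1 line against 2, no exact permutation test over lines can give a two-sided p below 0.333.

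**Figure D1:**
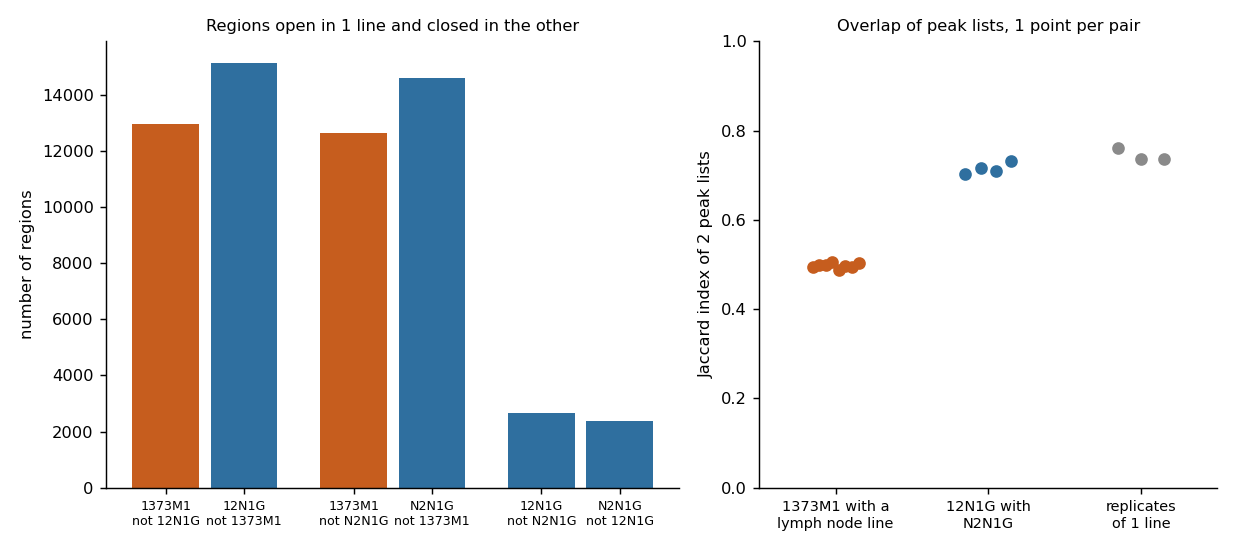
Left, regions open in 1 line and closed in the other (bars, number of regions) for the 3 pairs of RPR2 lines; right, Jaccard index of each pair of peak lists (points). Pairs with 1373M1 sit between 0.488 and 0.505, and those of 12N1G with N2N1G between 0.702 and 0.733.

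The threshold of the rule was strict. Just inside it lay the regions named above, with peaks in 2 liver and 0 lymph node libraries or in 0 and 4. Just outside it, 3019 regions had peaks in both liver libraries and 1 lymph node library, and 9519 in 1 liver library alone. On the lymph node side, 4782 regions had peaks in 0 liver libraries and 3 of 4 lymph node libraries, and 3296 in 1 liver library and all 4. Counting regions with a peak in at least 1 library as open gave 20125 liver-only and 19308 lymph-node-only regions. Without replicate 2 of 1373M1, the liver-only count was 16670.

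One-sided regions were narrower, weaker and farther from gene ends than shared ones. The median width was 389 bp in liver-only, 564 bp in lymph-node-only and 786 bp in shared regions. Within 1 kb of a gene end lay 3.8% of liver-only, 8.2% of lymph-node-only and 31.6% of shared regions. Inside a protein-coding gene lay 55.7% of liver-only, 49.7% of lymph-node-only and 66.1% of shared regions. Within its own peak lists a liver-only region had a median percentile of fold enrichment of 36.6, a lymph-node-only region 47.1 and a shared region 66. A region is the union of overlapping peaks, and the rule asks for 2 lists in liver-only, 4 in lymph-node-only and 6 in shared regions, so widths and strengths of the 3 classes are not on equal terms. A weak peak is also more readily missed in another list, and these values are descriptions with no test.

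A few one-sided regions were among the strongest peaks of their libraries. The fold enrichment used for this order was the authors' value at a summit, relative to the background of that library. Of the liver-only regions, the strongest was at chr18:3227427-3227922 (GRCm38), 38432 bp from Crem, a cAMP-responsive transcription factor, with fold enrichments of 33.81 and 31.34. The next was at chr11:83094695-83095207, 21613 bp from Slfn1, a Schlafen gene known from T cells of mice, with 26.48 and 26.32. The one at chr14:32260854-32261268 inside Parg, which encodes the enzyme that removes poly(ADP-ribose), had 21.0 and 22.76. It was open in all 4 Nfibf/f lines as well, so it was missing from the lymph node lines alone among the 7 lines. The other 2 of the first 5 lay 29867 bp from Nrxn3 (chr12:90364802-90365016) and inside Lrp1b (chr2:41660190-41660559).

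Among lymph-node-only regions the strongest lay inside Ifi207, an interferon-inducible gene of mice, at chr1:173728923-173729444. Its fold enrichments were 19.68 and 24.61 in 12N1G and 19.28 and 20.4 in N2N1G, and no Nfibf/f library had a peak there. The next lay 665689 bp from Reep3 (chr10:66342945-66343500). The third lay inside Nrg1, a ligand of ERBB receptors, at chr8:31975718-31976158, with 19.05 and 19.93 in 12N1G and 18.9 and 20.74 in N2N1G. The remaining 2 of the first 5 lay inside Cadm2, a synaptic adhesion gene (chr16:66824683-66825370), and 265285 bp from the neural adhesion gene Ncam1 (chr9:50064678-50065279). Of these 5 lymph-node-only regions, 4 were also open in the lung tumor line 1399P1, the Ifi207 region being the exception.

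Regions were then counted per protein-coding gene, in the gene body and 10 kb on either side, and compared with limma over all 7 lines. The fit took the 7 lines in 4 groups by genotype and tissue, and assumed that the lone liver line varies like the others. It treated the lines as independent, although 1398M1 shares a number with 1398P2, and 1399M4 with 1399P1. The labels do not say if 12N1G and N2N1G come from the same mouse. Of 7661 genes tested, 31 (0.405%) had more regions in 1373M1 and 119 (1.55%) had more in the lymph node lines at an adjusted p of 0.05. At an unadjusted p under 0.05 there were 1052 genes. The log2 difference, liver minus lymph node, had a median of 1.29 over the 31 genes, of -2.02 over the 119 and of 0.01 over all genes tested. Of the 119 genes, 26 had no region in either liver library, and none of the 31 lacked regions in every lymph node library. The minimum of 3 regions was a mean over the 3 lines, which genes open on the lymph node side alone reach more easily. A fitted difference from a count of 0 depends on the pseudocount of 0.5, so for these genes the counts are the result. The p-values measure the spread between these lines. Without scaling by the total of each line the same test called 0 genes on either side, with 870 at an unadjusted p under 0.05, and with the 3 RPR2 lines alone it called 1 and 28. Without line 12N1G it called 19 and 73, and without 1398M1, 1399M4 or 1398P2 it called 20 on the liver side.

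The genes with more regions in 1373M1 were led by a stretch of chromosome 11 that holds the Hoxb cluster, homeobox transcription factors that pattern the body axis. Hoxb3 (chr11:96307101-96347930) had 12 and 13 regions in the 1373M1 libraries, against 2 and 0 in 12N1G and 1 and 1 in N2N1G. The groups were far apart, and the log2 difference was 3.08 ± 0.21 (SE; limma, adjusted p = 0.000383). Hoxb6 had 8 and 7 in 1373M1, against 2 and 2 in 12N1G and 1 and 2 in N2N1G (1.83 ± 0.21, adjusted p = 0.00457). Next to the cluster lies Skap1, an adaptor of T cell receptor signalling (chr11:96464570-96759622). It had 24 and 22 regions in 1373M1, against 5 and 3 in 12N1G and 4 and 3 in N2N1G (2.47 ± 0.22, adjusted p = 0.00125). Its own gene end was open in 2 of 2 liver libraries and 0 of 4 lymph node libraries. Neighbouring Hoxb genes share regions, since their 10 kb windows overlap, so their calls are not separate observations.

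Counted as a whole with 10 kb around it, the Hoxb cluster (chr11:96184316-96378254, 10 genes) had 25 and 24 regions in 1373M1, against 8 and 4 in 12N1G and 6 and 4 in N2N1G. Of its 29 regions, 14 were liver-only and 0 lymph-node-only, and each of its 5 tested genes was called higher in 1373M1. In the Nfibf/f lines there were 16 open regions in 1398M1 and 21 in 1399M4 (liver), and 8 in 1398P2 and 20 in 1399P1 (lung). The Hoxd cluster (chr2:74658225-74775142) ran the other way. It had 9 and 4 regions in 1373M1, against 16 and 15 in 12N1G and 13 and 16 in N2N1G, with 0 liver-only and 5 lymph-node-only regions, and Hoxd8 and Hoxd3 were called higher in the lymph node lines. In the Hoxa cluster the counts were 11 and 9 in 1373M1, against 6 and 5 in 12N1G and 8 and 3 in N2N1G. In the Hoxc cluster they were 6 and 6, against 2 and 3 in 12N1G and 5 and 4 in N2N1G, where 1 Hoxa gene and no Hoxc gene had enough regions for the test and none was called. Local background at a gene is given as the 10th percentile over its called summits, relative to the floor of the library. Around Hoxb6 it was 9.79 to 10.93 times the floor in 1373M1, against 1.01 to 1.26 times in the lymph node lines. Around Hoxb3 it was 4.58 to 5.06 times in 1373M1, against 1 to 1.06 times in the lymph node libraries with a summit there. Those libraries had 1 or 2 regions at Hoxb3, and 12N1G replicate 2 had 0, so few summits enter. The part of this background in the calls was not tested.

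**Figure D2:**
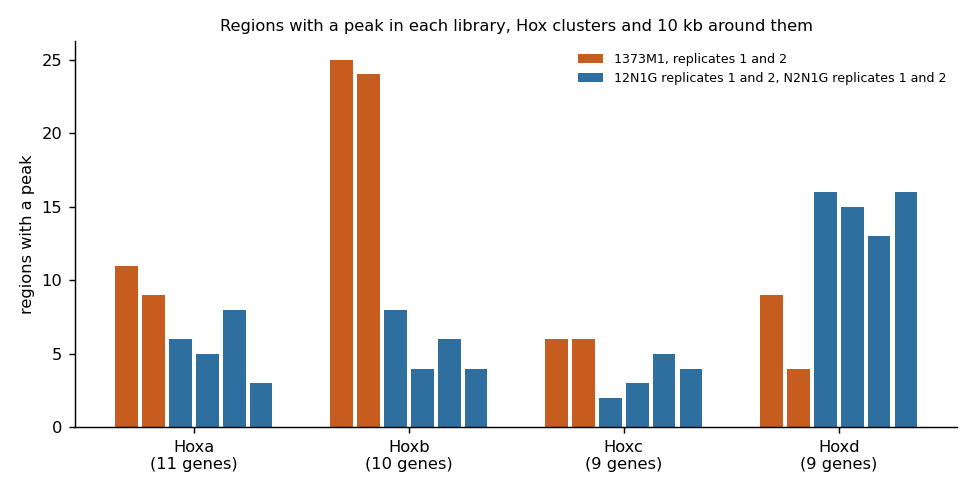
Regions with a peak (y axis, bars from 0) in each of the 6 libraries for the 4 Hox clusters, 1373M1 libraries first. The Hoxb cluster has 25 and 24 regions in 1373M1 and 4 to 8 in the lymph node libraries, and the Hoxd cluster has 9 and 4 in 1373M1 and 13 to 16 in the lymph node libraries.

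The other genes with more regions in 1373M1 included 3 on chromosome X among the 12 with the smallest p. Gpc3, a glypican of the cell surface, had 10 and 11 regions in 1373M1 and 2 in every lymph node library (2.13 ± 0.23, adjusted p = 0.00279). Shroom2 and Diaph2, both linked to the actin skeleton, had 7 to 10 and 9 to 11 regions in 1373M1, against 2 to 3 and 1 to 4 in the lymph node lines. Jag2, a NOTCH ligand, had 6 and 5 regions in 1373M1 and 2 in every lymph node library (1.26 ± 0.21, adjusted p = 0.0217). Brinp1, a neural inhibitor of cell cycle progression, had 7 and 6 regions in 1373M1 and 2 in every lymph node library. Filip1, a filamin-binding protein gene, had 10 and 5 in 1373M1, against 2 and 2 in 12N1G and 3 and 2 in N2N1G. Pakap, which encodes a protein kinase A anchor, had 15 and 15 in 1373M1, against 6 and 6 in 12N1G and 4 and 6 in N2N1G. In all 12 genes the lowest 1373M1 library lay above the highest lymph node library. Some of these calls were lost under other settings, those of Filip1 in 8 of 26 and Pakap in 8 of 28, of Gpc3 in 6 of 27 and of Jag2 in 6 of 25. With a window of 50 kb around the gene, the log2 difference of Jag2 was 0.43 (limma, adjusted p = 0.271).

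Many genes with more regions in the lymph node lines had none in 1373M1, as 26 of the 119 did. Nhs, a regulator of actin remodelling, had 0 regions in both 1373M1 libraries, against 8 and 8 in 12N1G and 8 and 7 in N2N1G (adjusted p = 0.000132). Inpp4b, a lipid phosphatase that acts against PI3K signalling, had 0 in both 1373M1 libraries, against 9 and 11 in 12N1G and 9 and 10 in N2N1G (adjusted p = 0.000132). Rreb1, a zinc finger transcription factor downstream of RAS, had 0 against 7 or 8 in each lymph node library (adjusted p = 0.000199). These 3 genes were not empty elsewhere: the Nfibf/f libraries had 2 to 5 regions at Nhs, 3 to 8 at Inpp4b and 3 to 6 at Rreb1.

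The remaining genes of the 12 with the smallest p included regulators of the cytoskeleton and a synaptic receptor. Agbl4, which encodes a peptidase that trims tubulin (1266.7 kb long), had 1 region in each 1373M1 library, against 29 and 32 in 12N1G and 28 and 33 in N2N1G, a log2 difference of -4.3 ± 0.28 (limma, adjusted p = 0.000371). Cobl, an actin nucleator, had 1 in each 1373M1 library, against 15 to 17 in the lymph node lines (-3.4 ± 0.26, adjusted p = 0.000727). Dock1, an activator of RAC, had 0 in both, against 19 and 18 in 12N1G and 16 and 12 in N2N1G (adjusted p = 0.000916). Unlike Nhs, Dock1 also had few of these regions in the Nfibf/f lines, with 0 to 2 per library. Regions were merged from the 6 RPR2 libraries alone, so Nfibf/f peaks elsewhere in a gene were not counted. Grin2b, an NMDA receptor subunit, had 0 in both 1373M1 libraries, against 21 and 21 in 12N1G and 18 and 18 in N2N1G (adjusted p = 0.00121). Prkcb, a protein kinase C isoform, kept 4 and 3 regions in 1373M1, against 24 and 22 in 12N1G and 20 and 22 in N2N1G (-2.46 ± 0.21, adjusted p = 0.00121). Ikzf1, the lymphoid transcription factor Ikaros, had 0 in both 1373M1 libraries, against 9 and 11 in 12N1G and 5 and 6 in N2N1G (adjusted p = 0.00125). Arhgap6, Rcan2 and Them7 completed the 12, with 0 or 1 regions in 1373M1, against 5 to 12 in the lymph node lines. Arhgap6 reached the minimum of 3 regions only because the mean over lines counts the lymph node side double.

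**Figure D3:**
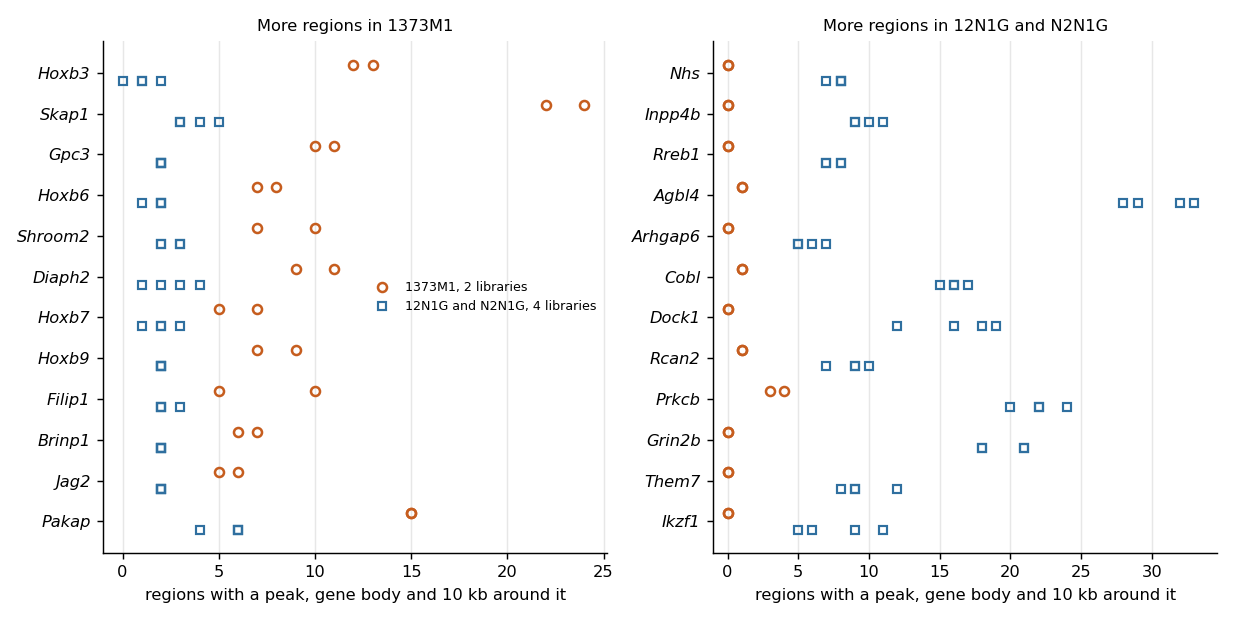
Regions with a peak per library (x axis) for the 12 genes with the smallest p in each direction, with 2 circles for 1373M1 above 4 squares for the lymph node lines, equal values lying on each other. The groups do not overlap in any of the 24 genes, which the choice by smallest p fixes in part; Agbl4 has 1 region in each 1373M1 library and 28 to 33 in the lymph node libraries.

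Many one-sided regions lay in or near genes. Of 21631 protein-coding genes, 4672 had at least 1 liver-only region, 4652 at least 1 lymph-node-only region and 1806 both. Macf1, a linker of actin and microtubules (338.2 kb), held 21 liver-only regions and 0 lymph-node-only ones, with 55 and 46 regions in 1373M1, against 21 and 22 in 12N1G and 17 and 18 in N2N1G. It was not called (1.37 ± 0.42, limma, adjusted p = 0.189), and the local background of its summits was 27.11 to 33.57 times the floor in 1373M1, against 1.8 to 1.96 times in the lymph node lines. Tenm2, a teneurin adhesion gene (1230.4 kb), held 20 liver-only regions and 7 lymph-node-only ones. Dlgap2, a postsynaptic scaffold gene (757.7 kb), held 18 and 0 and was called higher in 1373M1 (adjusted p = 0.0447). Among the 10 genes with the most liver-only regions were also Skap1 with 18, Lrmda with 17, the neurexin gene Nrxn3 with 16, and Auts2, Lsamp, Ptprn2 and Npas3 with 13 each. On the lymph node side, Agbl4 held 22 lymph-node-only and 0 liver-only regions and Csmd2 (581.2 kb) 20 and 0. Pde10a, a phosphodiesterase gene, held 15 lymph-node-only and 3 liver-only regions. Ephb1, Grin2b, Ptprd, Asic2 and Dab1 held 13 lymph-node-only regions each and Ano2 12.

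At gene ends, which stand in for promoters because the gene table gave no strand, the lymph node side had more one-sided openings. A peak within 1 kb of a gene end was present in both liver libraries and no lymph node library for 194 of 21631 genes (0.897%). The reverse held for 626 genes (2.89%), while 12497 genes had a peak in all 6 libraries and 6618 in none. Genes can share an end: the 194 fell into 169 groups, the largest with 20 genes at the protocadherin gamma cluster on chromosome 18, and the 626 into 616. Of the liver-only ends, 38.7% were open in 1398M1 and 30.4% in 1399M4, both from liver, beside 10.8% in 1398P2 and 29.4% in 1399P1, both from lung. Of the lymph-node-only ends, 56.9%, 39.6%, 25.2% and 71.4% were open in those 4 lines in the same order. Among ends with peaks in all 6 RPR2 libraries the shares ran from 87.4% in 1398P2 to 98.7% in 1399P1.

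Of the 10 liver-only ends with the strongest peaks, 3 belonged to Xlr3c, Xlr3a and Xlr3b on chromosome X, near-identical copies among which the assignment of reads is uncertain. The others were Slc15a5, a peptide transporter gene, Spink7, a protease inhibitor gene, Chrng, the gamma subunit of the acetylcholine receptor of muscle, Mgst2, Mlph, Ptprq and Phf11a. The Chrng gene spans chr1:87205811-87211835. Its end peaks were at percentiles 82.6 and 85.6 of fold enrichment in the 1373M1 libraries, with none in the 4 lymph node libraries. The 10 lymph-node-only ends with the strongest peaks were those of Rad51ap2, Daw1, Fggy, Tmem45a, Cdkn2b, Cartpt, Fgl1, Phyh, Prrg1 and Capsl. At Cdkn2b, which encodes a CDK inhibitor, the peaks were at percentiles 92.7 and 98.7 in 12N1G and 97.6 and 97.4 in N2N1G, with none in 1373M1. That end was open in both libraries of each Nfibf/f line. Its neighbour Cdkn2a (chr4:89274473-89294619) had peaks at an end in all 6 libraries.

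Promoter sequences are shown for 3 genes open at the promoter in 1373M1 but not the lymph node lines and 5 with the reverse, because these genes carry calls described above or below or, for Hoxb4, Chrng and Cdkn2b, one-sided gene ends. Each run is the RefSeq window on GRCm38.p6 from 250 bases before to 50 bases after a start, 5′ to 3′ along the gene. Capitals mark matches, on either strand, to the E-box CAGCTG, the cAMP response element TGACGTCA or the GC box GGGCGG. The other motifs searched on both strands were the NFI core TTGGCA, the AP-1 site TGANTCA, the forkhead site TGTTTAC, the GATA site AGATAA, the ETS site CCGGAAG, the TATA box TATAAA and the TEAD site CATTCC, which none of the 8 windows matched. No motif contains another, although matches can share bases. A match is a run of letters and not a shown binding site. The Filip1 and Rreb1 windows lie at starts inside their genes (chr9:79805018-80012851 and chr13:37778382-37952005). Neither end of Filip1 had a peak in any of the 6 libraries. The liver-only windows are those of Hoxb4 (chr11:96318017-96318316, plus strand), Filip1 (chr9:79830933-79831232, minus strand) and Chrng (chr1:87205561-87205860, plus strand).
Hoxb4: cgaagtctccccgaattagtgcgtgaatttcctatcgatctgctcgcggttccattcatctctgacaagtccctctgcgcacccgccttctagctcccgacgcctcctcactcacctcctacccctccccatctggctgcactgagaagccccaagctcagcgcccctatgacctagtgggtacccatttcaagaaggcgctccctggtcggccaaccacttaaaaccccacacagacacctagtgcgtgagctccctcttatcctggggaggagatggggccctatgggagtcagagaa
Filip1: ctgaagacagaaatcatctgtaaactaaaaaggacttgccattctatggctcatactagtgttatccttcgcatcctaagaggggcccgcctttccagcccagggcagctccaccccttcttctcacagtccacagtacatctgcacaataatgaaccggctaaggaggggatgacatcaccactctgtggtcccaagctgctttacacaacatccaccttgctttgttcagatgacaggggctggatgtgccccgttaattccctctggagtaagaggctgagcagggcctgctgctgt
Chrng: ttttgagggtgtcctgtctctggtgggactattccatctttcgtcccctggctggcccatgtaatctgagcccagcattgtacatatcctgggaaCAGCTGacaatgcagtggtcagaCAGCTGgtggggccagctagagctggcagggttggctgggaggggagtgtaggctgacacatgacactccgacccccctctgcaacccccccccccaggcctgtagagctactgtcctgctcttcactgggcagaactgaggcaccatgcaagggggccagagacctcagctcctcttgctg
The lymph-node-only windows are those of Nhs (chrX:162159392-162159691, minus strand), Inpp4b (chr8:81342312-81342611, plus strand), Rreb1 (chr13:37826662-37826961, plus strand), Ntrk2 (chr13:58806319-58806618, plus strand) and Cdkn2b (chr4:89310983-89311282, minus strand).
Nhs: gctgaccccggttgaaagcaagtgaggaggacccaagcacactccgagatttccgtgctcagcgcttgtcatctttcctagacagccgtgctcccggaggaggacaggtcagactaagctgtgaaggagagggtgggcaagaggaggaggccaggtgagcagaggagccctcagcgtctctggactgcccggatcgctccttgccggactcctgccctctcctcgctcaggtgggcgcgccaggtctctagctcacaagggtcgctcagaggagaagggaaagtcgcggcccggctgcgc
Inpp4b: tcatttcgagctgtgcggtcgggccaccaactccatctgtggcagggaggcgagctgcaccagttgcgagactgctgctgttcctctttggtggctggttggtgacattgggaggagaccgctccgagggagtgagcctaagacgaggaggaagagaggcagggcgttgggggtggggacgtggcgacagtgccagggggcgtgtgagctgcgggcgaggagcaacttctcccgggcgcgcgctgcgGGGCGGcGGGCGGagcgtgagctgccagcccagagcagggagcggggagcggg
Rreb1: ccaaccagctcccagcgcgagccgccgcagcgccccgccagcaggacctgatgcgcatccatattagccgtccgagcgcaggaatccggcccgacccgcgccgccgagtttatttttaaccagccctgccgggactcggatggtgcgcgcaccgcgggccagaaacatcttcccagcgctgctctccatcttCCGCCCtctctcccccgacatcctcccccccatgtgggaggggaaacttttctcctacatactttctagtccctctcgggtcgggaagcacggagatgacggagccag
Ntrk2: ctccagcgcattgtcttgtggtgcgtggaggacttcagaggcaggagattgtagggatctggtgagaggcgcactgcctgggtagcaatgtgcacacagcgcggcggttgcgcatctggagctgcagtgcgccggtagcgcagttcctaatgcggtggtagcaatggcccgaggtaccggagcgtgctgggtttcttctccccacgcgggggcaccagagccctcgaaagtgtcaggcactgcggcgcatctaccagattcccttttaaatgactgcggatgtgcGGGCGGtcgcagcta
Cdkn2b: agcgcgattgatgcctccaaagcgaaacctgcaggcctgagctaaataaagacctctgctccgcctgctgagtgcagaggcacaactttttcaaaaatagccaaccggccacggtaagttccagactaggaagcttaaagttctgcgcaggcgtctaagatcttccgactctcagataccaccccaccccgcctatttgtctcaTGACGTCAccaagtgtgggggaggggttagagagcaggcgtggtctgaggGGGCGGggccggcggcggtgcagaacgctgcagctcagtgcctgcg

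The windows of Hoxb4 and Filip1 held none of the 10 motifs, and that of Chrng held 2 copies of the E-box and 2 CpG dinucleotides. The lymph-node-only windows were richer in CpG, with 18 in Nhs, 25 in Inpp4b, 29 in Rreb1, 23 in Ntrk2 and 18 in Cdkn2b, against 14 in Hoxb4 and 4 in Filip1. Windows on chromosome 18, which held 26 of the 194 liver-only gene ends, were not used here. Over every window that could be matched, 120 were liver-only, with a median of 2.67 CpG per 100 bases, and 547 were lymph-node-only, with 4.33. The median was 7.67 in the 11240 windows with peaks in all 6 libraries, 1 in the 7751 with none and 4.33 in all 21045. The E-box occurred in 25.8% of liver-only windows, 19% of lymph-node-only windows and 15.7% of all windows. The GC box occurred in 37.5% of liver-only windows, 55.8% of lymph-node-only windows and 46.7% of all. TTGGCA, the core of the NFI binding site, occurred in 13.3%, 16.6% and 13.1% in that order of classes. The cAMP response element occurred in 0.8%, 1.6% and 2.3%. The shares for the other motifs, in liver-only, lymph-node-only and all windows, were 7.5%, 6.4% and 7% for TGANTCA, 3.3%, 1.8% and 3% for TGTTTAC, 6.7%, 8.4% and 9.7% for AGATAA, 8.3%, 4.9% and 11.7% for CCGGAAG, 4.2%, 7.5% and 12.7% for TATAAA, and 14.2%, 13% and 13.5% for CATTCC.

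Among 336 genes in 23 lists on metastasis, lineage and host cell types, 203 were tested, of which 2 were called higher in 1373M1 and 7 higher in the lymph node lines, beside 0.405% and 1.55% of all genes tested. The medians of lists below are log2 differences over their tested genes, beside 0.01 over all genes. Jag2, described above, was the call among 13 tested genes of the NOTCH and YAP list (median 0.01). Itga5, the fibronectin receptor subunit and the only integrin called of 17 integrin and laminin genes tested, had 7 and 5 regions in 1373M1, against 2 and 2 in 12N1G and 1 and 1 in N2N1G (1.73 ± 0.32, limma, adjusted p = 0.0336). Receptor tyrosine kinases had 2 of 20 tested genes called higher in the lymph node lines and a median of -0.18. Ntrk2, the receptor of brain-derived neurotrophic factor, had 3 and 6 regions in 1373M1, against 18 and 20 in 12N1G and 19 and 21 in N2N1G (-1.97 ± 0.31, adjusted p = 0.0173), and its gene end was lymph-node-only. Ror2, a WNT receptor, had 2 and 2 in 1373M1, against 7 and 7 in 12N1G and 5 and 9 in N2N1G (-1.55 ± 0.25, adjusted p = 0.0182). Ntrk3 had 4 and 4 in 1373M1, against 11 to 16 in the lymph node libraries, and was not called (adjusted p = 0.0729).

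Matrix genes had one-sided ends on both sides. Of 20 matrix proteases and inhibitors, the ends of Mmp2, Mmp14, Adam12 and Adamts1 were lymph-node-only, that of Mmp9 was liver-only and 13 had peaks in all 6 libraries, beside 2.89% and 0.897% of all genes for lymph-node-only and liver-only ends. Adam12, a membrane metalloprotease gene, had 0 regions in both 1373M1 libraries, against 9 and 11 in 12N1G and 11 and 10 in N2N1G (adjusted p = 0.00208). Mmp14, which encodes a membrane-bound collagenase, had end peaks at percentiles 94.6 and 87.4 in 12N1G and 90.3 and 92.3 in N2N1G, with none in 1373M1. Of 10 collagen genes tested, Col25a1 was called, with 2 and 2 regions in 1373M1, against 13 and 12 in 12N1G and 10 and 10 in N2N1G (-2.18 ± 0.41, adjusted p = 0.0376). The end of the laminin gene Lama4 was lymph-node-only.

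Genes of axon guidance and neuron projection had a median of 0.23, with 16 of 24 tested genes above 0 and 91 liver-only regions against 39 lymph-node-only ones. None was called higher in 1373M1. Dcc, a netrin receptor gene, had 23 and 20 regions in 1373M1, against 10 and 10 in 12N1G and 8 and 11 in N2N1G, at an adjusted p of 0.0816. Robo1, a SLIT receptor gene, had 25 and 25, against 16 and 17 in 12N1G and 21 and 17 in N2N1G (adjusted p = 0.335). The netrin receptor gene Unc5d was called in the other direction, with 1 and 1 in 1373M1, against 12 and 9 in 12N1G and 11 and 11 in N2N1G (-2.85 ± 0.46, adjusted p = 0.0198). Robo2 was the member whose end was lymph-node-only.

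The WNT list gave 1 call, and the BMP list none. Of 17 WNT pathway genes tested (median -0.07), Dkk2, an extracellular modulator of WNT, was called (limma, adjusted p = 0.00986). Dkk2 had 0 regions in both 1373M1 libraries, against 5 and 5 in 12N1G and 4 and 4 in N2N1G. It reached the minimum of 3 regions only because the mean over lines counts the lymph node side double, so its counts are the result. The TGF-beta and BMP list had a median of -0.22, with 12 of 16 genes below 0 and no call, and the end of Bmpr1b, a BMP receptor gene, was lymph-node-only. In the list of lipid and liver-type metabolism, Pparg, a nuclear receptor of fat storage, was called, with 1 and 1 in 1373M1, against 6 and 7 in 12N1G and 4 and 6 in N2N1G (-1.99 ± 0.27, adjusted p = 0.00966). Of 3 chemokine genes tested none was called, and Cxcr4, the receptor of CXCL12, had 5 and 4 regions in 1373M1, against 3 and 4 in 12N1G and 3 and 3 in N2N1G (adjusted p = 0.544).

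Other list genes open on 1 side at their ends were Cdh1, the epithelial cadherin gene, Cxcr5, Notch3, Wnt11, Sox9 and Apob in the lymph node lines, and Myt1 and Dcn in 1373M1. The Cdh1 end had peaks at percentiles 14.2 and 31.7 in 12N1G and 31.7 and 19 in N2N1G, low in their lists, and was open in all 4 Nfibf/f lines. End peaks were also low at Notch3 (0.3 to 17.5), Wnt11 (3 to 13.2), Myt1 (18.7 and 15.2) and Dcn (21.5 and 20.7). Those of Cxcr5, Apob and Sox9 lay between 19.9 and 66.4. Cxcr5 had 2 and 3 regions in 1373M1, against 1 and 1 in 12N1G and 1 and 2 in N2N1G. In all, 3 list genes had liver-only ends, 16 had lymph-node-only ends, 215 had peaks in all 6 libraries and 58 had none, and the one-sided shares over all genes were 0.897% and 2.89%. Nfib itself had 17 and 15 regions in 1373M1, against 20 and 23 in 12N1G and 20 and 20 in N2N1G, a log2 difference of -0.35 ± 0.28 (adjusted p = 0.696). Its end was open in all 6. The local background of Nfib summits was 1.11 to 1.54 times the floor in 1373M1, against 2.3 to 3.01 times in the lymph node lines. The part of this background in the Nfib counts was not tested. Lists with no call in either direction were those of neuroendocrine genes, neurogenic factors, epithelial-mesenchymal factors, chemokines, vessel growth factors, TGF-beta and BMP, NFI, MYC, targeted genes, tuft-like state and the 5 marker lists of other cell types.

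One-sided regions were spread unevenly over chromosomes. On chromosome X, 14.26% of regions were liver-only and 8.77% lymph-node-only, and on chromosome 10 the shares were 13.74% and 6.63%. Chromosome 17 leaned the other way, with 6.73% liver-only and 11.86% lymph-node-only. Over tested genes the median log2 difference was 0.18 on chromosomes 10 and X, against 0.01 over all genes. Chromosome X held 7 of the 31 genes called higher in 1373M1 and 4 of the 119 called higher in the lymph node lines, of 105 tested there. Chromosome 17 held 0 of the 31 and 11 of the 119. Of the genes on chromosome X, 18 had liver-only ends (1.86%) and 55 lymph-node-only ends (5.69%), beside 0.897% and 2.89% over all genes. Peak lists hold no copy number, so DNA gain or loss and a change of accessibility cannot be told apart. In 1 Mb bins, the median local background of called summits over the floor was compared. In 88 of 2066 bins every library of 1 side was at least 1.5 times every library of the other. The liver line was higher in 72, with 243 liver-only and 337 lymph-node-only of their 2681 regions. The lymph node lines were higher in 16, with 53 and 172 of 1171. Together the bins held 296 liver-only and 509 lymph-node-only of 3852 regions. Only called summits enter the median, so peaks missing from a list can move it, which was not tested.

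**Figure D4:**
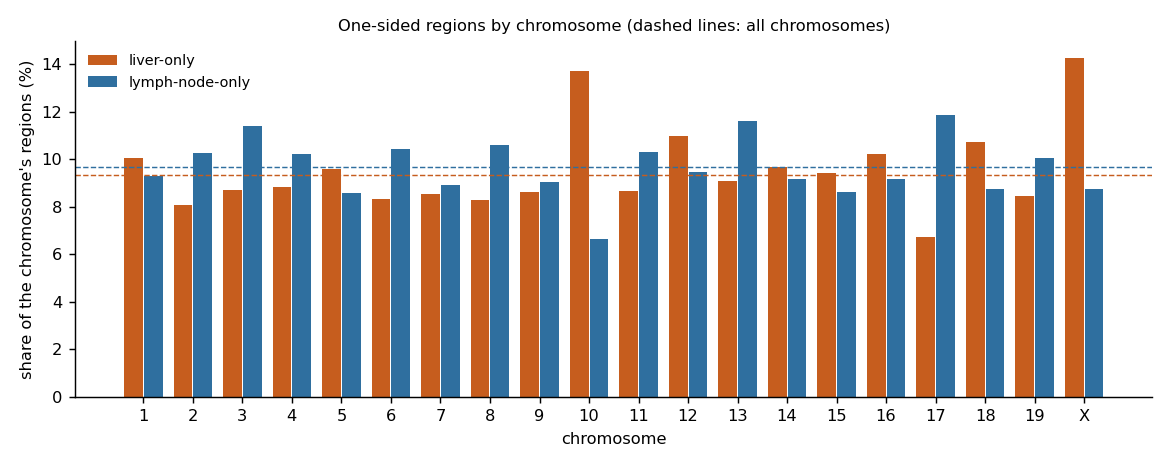
Share of each chromosome's regions (y axis, percent) that are liver-only (orange bars) and lymph-node-only (blue bars), with dashed lines at the shares over all chromosomes, 9.35% and 9.7%. Chromosomes 10 and X have the highest liver-only shares, 13.74% and 14.26%, and chromosome 17 the lowest, 6.73%.

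The 8 libraries of the Nfibf/f lines, which did not enter the rule, showed which one-sided regions recur. Of liver-only regions, 38% were open in the liver line 1398M1, 28.6% in the liver line 1399M4, 10.4% in the lung line 1398P2 and 29.1% in the lung line 1399P1. Of lymph-node-only regions, 24.9% were open in 1398M1 and 17.9% in 1399M4, beside 8.6% in 1398P2 and 41.9% in 1399P1. Thus the liver-only share was the higher of the pair in both liver lines and in 1398P2, and the lymph-node-only share in 1399P1. For regions open in all 3 RPR2 lines the shares were 82.9%, 69.8%, 51.5% and 84.7% in the same order. Over all regions they were 44.7%, 38.3%, 22.1% and 47.3%, above both one-sided classes in every line. Replicate 2 of 1398P2 was shallow, with 33519 peaks and a floor of 0.507 fragments per bp, and its part in the low shares of that line was not tested.

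**Figure D5:**
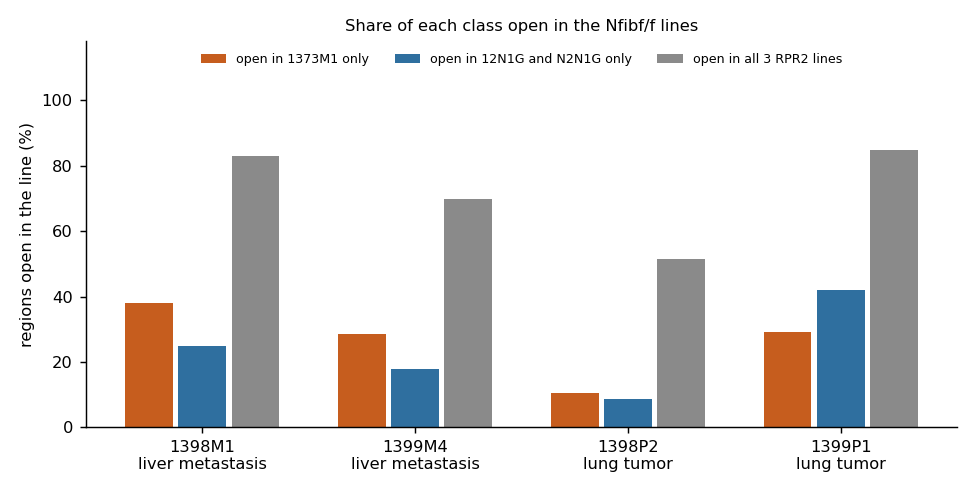
Percent of liver-only, lymph-node-only and shared regions (bars, y axis) that were open in each of the 4 Nfibf/f lines. Liver-only regions exceed lymph-node-only ones in 1398M1 (38% and 24.9%), 1399M4 (28.6% and 17.9%) and 1398P2 (10.4% and 8.6%), and not in 1399P1 (29.1% and 41.9%). Over all regions, not drawn, the shares were 44.7%, 38.3%, 22.1% and 47.3% in 1398M1, 1399M4, 1398P2 and 1399P1.

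A tissue pattern shared with the Nfibf/f lines was rare. Regions open in both Nfibf/f liver lines and closed in both lung lines numbered 158 among the 10606 liver-only regions (1.49%) and 61 among the 11003 lymph-node-only ones (0.55%), beside 0.53% of all regions. The mirror pattern, open in both lung lines and closed in both Nfibf/f liver lines, was found in 12 (0.11%) and 39 (0.35%), beside 0.1% of all regions. Closed in all 4 Nfibf/f lines were 31.7% of liver-only and 32.5% of lymph-node-only regions, against 3.9% of shared and 26.1% of all regions. Of 19413 regions open in 1373M1 and all 4 Nfibf/f lines, 660 (3.4%) had no peak in the lymph node lines, and of 18551 open in both lymph node lines and all 4 Nfibf/f lines, 497 (2.68%) had no peak in 1373M1. For the genes, the scaled count of each Nfibf/f line was placed between the sides. The 31 genes called higher in 1373M1 lay nearer to 1373M1 in 26 cases for 1398M1 and 21 for 1399M4, and in 20 cases for each lung line. The 119 called higher in the lymph node lines lay nearer to 1373M1 in 31, 42, 32 and 19 cases in the same order. Over all genes tested, 54.3%, 54.4%, 52.4% and 48.8% lay nearer to 1373M1. The Nfibf/f lines entered the fit through the estimate of spread, so these positions are a description. Their counts cover only regions merged from the RPR2 libraries and leave out Nfibf/f peaks elsewhere.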

How the data were processed

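ATAC-seq peak lists of the 6 RPR2 libraries were compared, and those of the 8 Nfibf/f libraries were used beside them. The samples, gene lists and tests were chosen with earlier results of these data known. The submitters' processing notes list MACS2, SAMtools, Picard, Bowtie2 and cutadapt 2.10, with GRCm38 and mm10 as builds. What each did, with which settings, and how reads were shifted is not given in the sources used here. Some lists name a human build, but no coordinate exceeded a GRCm38 chromosome, and the 1373M1 lists, 1 of each kind, had a Jaccard index of 0.762, so positions are given 1-based on GRCm38.

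The authors deposited 1 narrowPeak list per library, not pooled. The fold enrichment of each summit is the authors' ratio of its signal to the background around it. The authors also deposited a -log10 p-value and a -log10 q-value per summit, with a lowest -log10 q of 1.3 in every list, and a score that was not used. Fold enrichment ranked peaks within a list and was not compared between lists. The lists hold no read totals. Fold and p together fix the pileup and the local background of a summit under a Poisson model, and 100% of pileups in the 6 libraries came out whole within 0.02. The lowest background, the floor, served as depth, and absence of a peak means absence at that depth.

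Regions, open and closed states and gene ends (1 kb) were defined as described in the report, with genes from RefSeq (GRCm38.p6), listed without strand or exons. A protein-coding gene took regions within 10 kb. Mean regions of a line, scaled by the total of the line, were analysed as log2 (value + 0.5), which understates changes of genes with few regions. Genes averaging 3 or more regions over the 3 RPR2 lines were tested with limma 3.58.1 (R 4.3.3; trended empirical Bayes), with Benjamini-Hochberg adjustment at 0.05. That mean counts the lymph node side double, so genes high there pass more often. The code was tested on simulated data.

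The genes named are, per direction, the 12 with the smallest p, the 10 with the most one-sided regions and the 10 with the strongest one-sided end, and per class the 5 strongest regions. From each list, called members and the 3 with the smallest p could be named. Promoter windows matched 17274 genes. Python 3.11.15 and pandas 2.3.3 were used. Alternatives covered the merge, the open rule, the pseudocount, the filters, the scaling, the gene window, peak strength, depth, bins of raised background and each library and line left out. Values of some individual genes are not reported here.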

Additional observations from a re-analysis of the deposited data

Results flagged for a closer look

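Peaks on chromosome Y, which the comparison leaves out, were present in all 6 libraries. They numbered 40 and 34 in the 1373M1 libraries, against 22 and 20 in the 12N1G libraries and 16 and 15 in the N2N1G libraries. These are signals outside the chromosomes compared. The labels give no sex of the mice, the chromosome holds repeated sequence, and the part of either in the counts was not tested.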

How the results depend on the processing

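Genes called by number of regions (31 higher in 1373M1 and 119 in the lymph node lines) depended on the settings. The numbers, liver first, were 1 and 28 with the 3 RPR2 lines alone, 85 and 164 with 14 libraries and the line as a random block without a replicate block, and 66 and 146 with the replicate block. The labels give only replicate numbers, and the differences between replicates correlated by 0.021 to 0.056 between lines, so the numbers do not pair the samples. The counts were 98 and 324 with no minimum of regions, 5 and 56 with a minimum of 5, 0 and 0 without scaling (limma, 870 genes at an unadjusted p under 0.05), and 19 and 89 with gene bodies alone. They were 84 and 336 with a window of 50 kb, 14 and 106 with regions merged over 14 libraries, 12 and 55 at a -log10 q of at least 5, and 12 and 78 with equal numbers of peaks. Without line 12N1G they were 19 and 73, and without 1398M1, 1399M4 or 1398P2 20 liver calls each. Leaving out single libraries gave 25 to 38 and 102 to 158. Of 24 named genes, 15 passed in every setting in which they were tested other than the first and the unscaled one, and 0 changed direction. Those that did not were Gpc3, Diaph2, Hoxb7, Hoxb9, Filip1, Brinp1, Jag2, Pakap and Dock1. A single library ended the call of Filip1 (1373M1 replicate 1, adjusted p = 0.0664 without it), Hoxb7 (12N1G replicate 1, limma, 0.0629) and Pakap (1398P2 replicate 2, 0.0756).

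Liver-only regions numbered 20125 and lymph-node-only regions 19308 with 1 library sufficing, and 11291 to 16670 and 11990 to 13312 without single libraries. Liver-only gene ends numbered 346 with 1 library sufficing and 108 with RefSeq starts in place of both ends (chromosome 18 left out), and 213 to 290 without single libraries, against 657 to 823 for lymph-node-only ends. The Jaccard index was 0.503 between 1373M1 and a lymph node line, 0.733 within the lymph node side and 0.762 between replicates with equal numbers of peaks, and 0.506, 0.740 and 0.765 at a -log10 q of at least 5. With 1 library of an Nfibf/f line sufficing, 52.4%, 38.1%, 36.2% and 40.9% of liver-only regions were open in 1398M1, 1399M4, 1398P2 and 1399P1, and 34.9%, 25.5%, 29% and 57.3% of lymph-node-only regions. At a -log10 q of at least 5 the shares were 35.8%, 26.4%, 6.4% and 26.6%, and 23.4%, 16%, 5.3% and 37.2%. Bins with differing background numbered 22 at a ratio of 2 and 23 by the 10th percentile, a measure chosen after seeing the data, as was a minimum on the mean of the 2 sides (27 and 88 genes). The cause of these changes was not tested. A motif search at peak summits was not run for want of a genome. Depth limits absence: a region without a peak may be open below the call threshold of its library.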

Other observations

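Gene families outside the lists were examined after the one-sided gene ends had been seen, so their counts are descriptions. Among 19 subunits of ionotropic glutamate receptors, 0 ends were liver-only and 5 were lymph-node-only (Grin2a, Grin2b, Grik1, Grik5 and Gria4), beside 9 with peaks in all 6 libraries. Of 18 subunits tested, 0 were called higher in 1373M1 and 4 higher in the lymph node lines (limma, Gria1, Grin2a, Grin2b and Grik4), with a median log2 difference of -0.55, where 0.405% and 1.55% of all genes tested were called. Among 25 GABA and glycine receptor subunits, 0 ends were liver-only and 7 lymph-node-only, Gabra2 and Glra1 among them, and none of 7 tested was called. Serotonin receptors had 0 liver-only and 6 lymph-node-only ends of 14, and ADAMTS proteases 0 and 6 of 19. Potassium channel subunits had 1 liver-only end (Kcnmb1) and 9 lymph-node-only ends of 94. Other families leaned to the liver line, with 20 liver-only ends and 1 lymph-node-only end among 57 clustered protocadherins, many of which share an end, and 5 and 2 among 39 Hox genes. The shares of ends over all genes were 0.897% liver-only and 2.89% lymph-node-only.

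A pair of lineage factors of the Runx family differed in side: the end of Runx3 was liver-only, and that of Runx2 was lymph-node-only, with Runx2 called higher in the lymph node lines (log2 difference -1.96, limma, adjusted p = 0.00992). Both were singled out after their values were seen. On chromosome X, 8 of 33 Rhox genes (homeobox genes known from reproductive tissue of mice) and 4 of 10 Xlr genes had liver-only ends, and 0 of either had lymph-node-only ends. These genes have near-identical copies, so their assignment is uncertain.

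Neighbouring regions without a peak on 1 side came in runs. Counting runs of at least 20 consecutive regions with no peak on 1 side, a rule chosen after the values were seen, gave 53 runs with no peak in 1373M1 and 1 with none in the lymph node lines. The sides are unequal in this count, since 37380 regions had no peak in the 2 libraries of 1373M1 and 20125 none in the 4 of the lymph node lines. With 2 libraries a side, over regions with a peak in either line, there were 38 runs with no peak in 1373M1 against 1 with none in 12N1G, and 35 against 1 with none in N2N1G. The 53 held 700 lymph-node-only regions (6.36% of the class) and overlapped 33 of the 119 genes called higher in the lymph node lines, and 14 of them lay on chromosome 11. The run with the most lymph-node-only regions spanned 80 regions on chromosome 7 (133805747 to 135642156) with Adam12, Dock1 and Ptpre, all called, and held 35 of them. In 1373M1 its 80 regions had no peak, against 60 and 56 peaks in the 12N1G libraries and 55 and 49 in the N2N1G libraries. Of these regions, 2 were open in each Nfibf/f liver line, 1 in 1398P2 and 15 in 1399P1. The run with the most regions, 119 with 32 lymph-node-only, lay on chromosome 4 (121672837 to 122119643), and further runs followed up to 122706459. In the bin at 121 to 122 Mb, median background over the floor was 2.94 and 3.44 in 1373M1. For 12N1G and N2N1G it was 17.96 to 28.39. At 142 to 143 Mb, where another run lay, 1373M1 was higher, with 5.85 and 7.35 against 2.55 to 2.96. The part of background in the runs was not tested. The run with no lymph node peak lay on chromosome X (54278686 to 55471689), with 36 regions, 21 of them liver-only. Peak lists cannot tell DNA that is absent from chromatin that is closed.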
